A study of Homo sapiens with 4 samples.

Results

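The Argonautes and the microRNA machinery were examined as a group of 10 genes, AGO1, AGO2, AGO3, AGO4, DROSHA, DGCR8, XPO5, DICER1, TARBP2 and TNRC6A. The genes were taken by symbol from the deposited expression tables and joined by gene identifier to the counts, and all 10 were found among the 61498 genes of the files. All 10 passed the filter on low counts, which left 14458 genes to test. The poly(A) RNA came from K562, a human leukaemia line of erythroleukaemia type, in which the porphyrin hemin brings out erythroid features. The groups were 2 untreated libraries and 2 libraries of the same line grown with 50 µM hemin for 108 h, with no other agent or genetic change named for either group. Values before hemin are those of the untreated libraries. The cells are a transformed line in bulk, so fewer cells of a type and less RNA per cell cannot be told apart in any value given here.

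MicroRNAs are cut out of longer transcripts in steps. In the nucleus the Microprocessor, made of the ribonuclease DROSHA and its RNA-binding partner DGCR8, releases a hairpin, which XPO5 (exportin 5) carries to the cytoplasm. There DICER1 and its partner TARBP2 cut the hairpin to a short duplex, of which a single strand is held by an Argonaute protein. The strand pairs with messenger RNAs mainly through its seed, bases 2 to 8, and the Argonaute recruits TNRC6A, a scaffold that brings in the enzymes that shorten poly(A) tails and remove caps. AGO2 is the member that can itself cut a paired RNA. In red cell precursors AGO2 is known for making miR-451a without DICER1.

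The genes of the machinery also carry microRNA hairpins. Matching the RefSeq microRNAs (GRCh38.p14) to the gene bounds placed 3 mature microRNAs inside DGCR8 and 2 inside DICER1. They are shown because their hairpins lie in transcripts of the members themselves, with the seed in capitals and all sequences 5′ to 3′:
hsa-miR-3618: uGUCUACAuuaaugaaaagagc
hsa-miR-1306-5p: cCACCUCCccugcaaacgucca
hsa-miR-1306-3p: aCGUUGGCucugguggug
hsa-miR-3173-5p: uGCCCUGCcuguuuucuccuuu
hsa-miR-3173-3p: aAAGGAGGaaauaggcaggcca
The miR-3618 strand lies on chr22:20085797-20085818 in an exon of DGCR8 outside the coding sequence, and miR-1306-3p on chr22:20086112-20086129, whose hairpin lies in an exon and touches the coding sequence. miR-3173-5p lies on chr14:95137961-95137982, minus strand, in an intron of DICER1. Cutting of such hairpins in the DGCR8 messenger by the Microprocessor is a known form of feedback. The hairpin genes MIR3618, MIR1306 and MIR3173 were each listed at 0 counts in all 4 libraries. The upper limit behind such a zero was set at 3 counts, which is 0.364 to 0.402 CPM, the count scaled to the depth of a library, in these libraries. It covers counting error only. Reads on MIR3618 and MIR1306, which lie in exons of DGCR8, may have been assigned to DGCR8. The limit therefore does not bound the level of the hairpins. Mature microRNAs were not measured by these poly(A) libraries.

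A second set of sequences belongs to the microRNA host transcripts described further on, and is grouped by shared seed. The seed AAAGUGC joins strands from MIR17HG on chromosome 13 with strands from the MCM7 locus on chromosome 7, and AUUGCAC joins the same hosts again:
hsa-miR-17-5p (MIR17HG): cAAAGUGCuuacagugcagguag
hsa-miR-20a-5p (MIR17HG): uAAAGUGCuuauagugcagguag
hsa-miR-93-5p (MCM7): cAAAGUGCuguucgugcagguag
hsa-miR-106b-5p (MCM7): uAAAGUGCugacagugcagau
hsa-miR-92a-3p (MIR17HG): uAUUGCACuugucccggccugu
hsa-miR-25-3p (MCM7): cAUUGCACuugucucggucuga
The seed AGCAGCA is shared by the strands of DLEU2 on chromosome 13 and of SMC4 on chromosome 3, and miR-16-5p is made from both loci:
hsa-miR-15a-5p (DLEU2): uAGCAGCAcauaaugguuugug
hsa-miR-15b-5p (SMC4): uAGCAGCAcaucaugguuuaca
hsa-miR-16-5p (DLEU2 and SMC4): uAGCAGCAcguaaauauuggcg
The remaining ones are shown for MIR223HG, whose counts fell after hemin, for MIR22HG, and for the let-7 family, which the LIN28 proteins described below are known to hold back:
hsa-miR-223-3p (MIR223HG): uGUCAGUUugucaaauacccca
hsa-miR-22-3p (MIR22HG): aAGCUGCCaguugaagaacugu
hsa-let-7a-5p (MIRLET7BHG and MIR100HG): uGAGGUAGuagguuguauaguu
hsa-let-7b-5p (MIRLET7BHG): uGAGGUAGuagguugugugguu

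The expected counts summed to between 7455447 and 8241534 per library. The erythroid markers GATA1, KLF1, TAL1, HBG1, HBG2, HBE1 and TFRC were all above 3 counts in every library, and their summed level was 5120 to 5340 TPM, the transcript level scaled to length and depth, in the untreated libraries and 6060 to 6540 TPM after hemin. The part of this shift in the values of the 10 genes was not tested. Of the 3 T cell, 3 B cell and 3 monocyte markers none was above 3 counts in all 4 libraries, and CD3E and MS4A1 were at 0. EPCAM, listed as an epithelial marker, was at 42.4 to 49.2 TPM, whereas CDH1 was at 0.

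On the scale of TPM, which is per length and so allows genes to be compared, the nuclear part of the machinery stood highest. In the untreated cells XPO5 was at 122 ± 8.58 TPM (SD, n = 2), DROSHA at 74.8 ± 2.25 TPM and DGCR8 at 50.7 ± 4.14 TPM, and the libraries of these neighbours in the order did not overlap. AGO2 followed at 38.2 ± 5.82 TPM and AGO1 at 32.5 ± 4.21 TPM, whose libraries overlapped. AGO3 was at 20.3 ± 3.22 TPM and DICER1 at 18.4 ± 1.07 TPM, again overlapping. AGO4, TNRC6A and TARBP2 stood lowest, at 16.3 ± 1.31, 16.1 ± 1.69 and 15.8 ± 1.82 TPM, and could not be ordered. XPO5 had a mean TPM over the 4 libraries above that of 93.0% of the tested genes, and AGO4 above that of 49.6%. The effective lengths behind these TPM were 48.4 bases shorter than the lengths, less than the fragment length named in the methods would give. The TPM of short transcripts such as those of TARBP2 depend on this most, and its part in the order was not tested.

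After hemin the upper part of the order was the same, from XPO5 (126 ± 15.9 TPM) through DROSHA (66.3 ± 0.728 TPM), DGCR8 (56.6 ± 4.31 TPM), AGO2 (36.9 ± 4.36 TPM) and AGO1 (34.6 ± 1.11 TPM). TARBP2 stood next at 22.2 ± 1.99 TPM, and its libraries overlapped those of AGO3 at 22.1 ± 5.18 TPM. TNRC6A (19.8 ± 5.49 TPM) and DICER1 (19.6 ± 2.58 TPM) were not separated from them by their libraries. AGO4 was lowest at 13.2 ± 1.22 TPM.

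**Figure D1:**
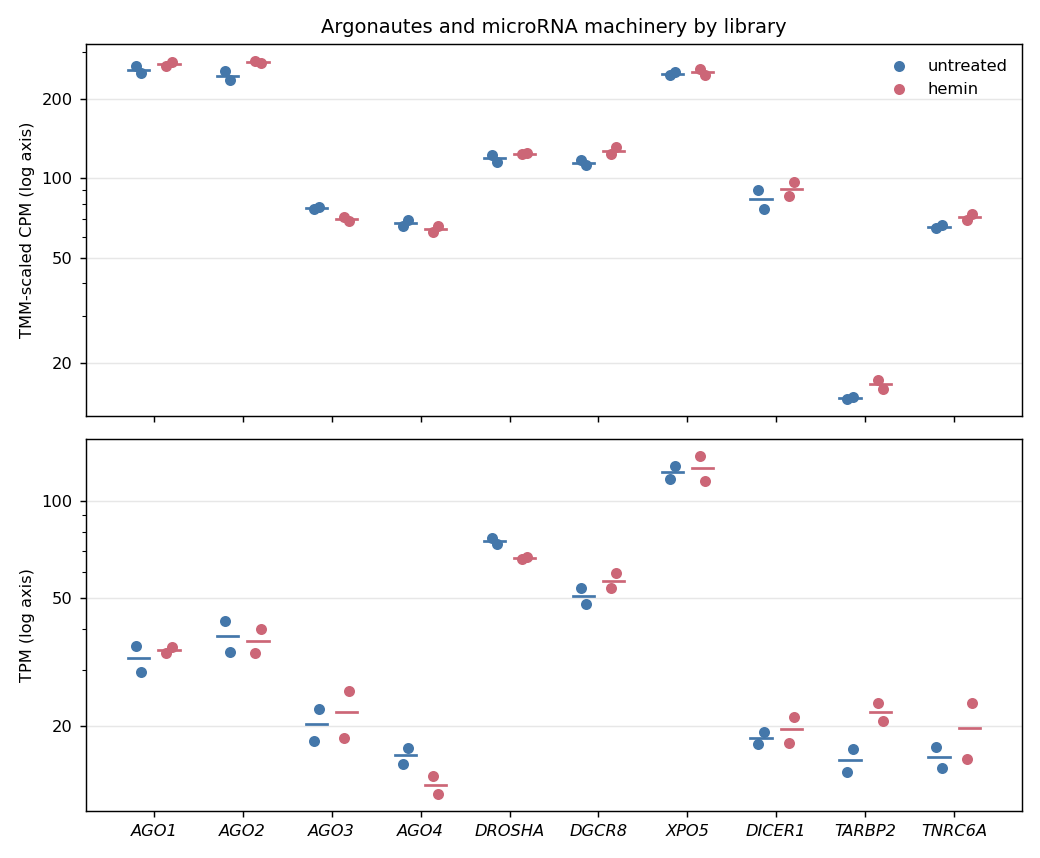
Level of the 10 genes in each library, as TMM-scaled CPM (upper panel) and TPM (lower panel), both on log axes, with a point per library and a bar at the mean of the 2 libraries of a group. In CPM the groups lie close together for every gene, while in TPM those of TARBP2 lie farthest apart, at means of 15.8 and 22.2. XPO5 has the highest TPM in every library.

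The comparison of hemin-treated with untreated cells asks whether erythroid induction is accompanied by a change in the amount of this machinery. Counts were tested with edgeR's quasi-likelihood test across all 14458 genes with Benjamini-Hochberg adjustment. Of the 10 genes, 1 rose past the threshold of 0.05, AGO2, and 0 fell. Among all tested genes, 7.00% were called higher and 7.14% lower, so the count of members called stood near the background. At an unadjusted p under 0.05 by edgeR there were 2 members higher (AGO2 and DGCR8) and 1 lower (AGO3). Of all 14458 tested genes 2133 were higher and 2118 lower at this p, so these counts too stood near the background. DESeq2 also called 1 member higher and 0 lower. The fitted log2 fold change was above 0 for 8 members and below 0 for 2 (for 7 of 10 above 0 with scaling by library size alone and for 7 by limma on TPM), with a median of 0.10 against -0.0048 over all tested genes. All 95% intervals lay between 0.83-fold and 1.36-fold. The TMM-scaled CPM of the groups did not overlap for 8 of the 10 members, beside 57.3% of all tested genes.

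**Figure D2:**
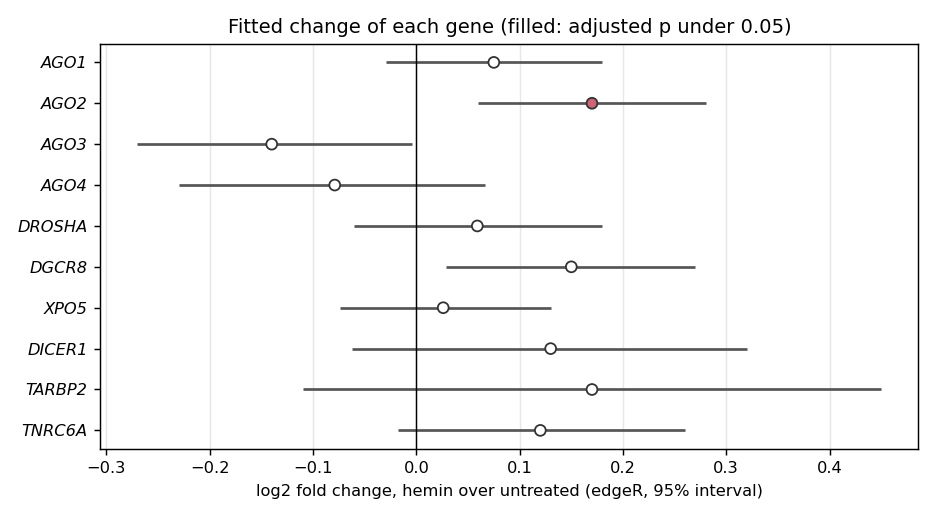
Log2 fold change of each gene, hemin over untreated, from edgeR's quasi-likelihood test on expected counts, with its 95% interval. AGO2 (0.17) is the filled point, with an adjusted p under 0.05, and AGO3 (-0.14) and AGO4 (-0.08) lie to the left of 0, although AGO3 is at 0.11 by limma on TPM.

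AGO2 (ENSG00000123908) lies on the minus strand of chromosome 8, from 140520156 to 140635633 (GRCh38, GENCODE 44). It had 2014 and 1754 expected counts in the untreated libraries and 2059 and 2202 after hemin, which is 254.6 and 234.2 against 277.6 and 272.9 CPM. Both hemin-treated libraries were above both untreated ones. The log2 fold change was 0.17 (SE 0.049), or 1.13-fold with a 95% interval of 1.04 to 1.22 (edgeR adjusted p = 0.0479). The TPM of the same gene overlapped between the groups, with 42.35 and 34.12 in the untreated and 33.78 and 39.95 in the hemin-treated libraries. The adjusted p of AGO2 was 0.115 by edgeR with scaling by library size alone and 0.897 by limma on log2(TPM + 1), where the log2 fold change was -0.05. Left out in turn, untreated replicate 2 (edgeR adjusted p = 0.209), hemin replicate 1 (0.0885) and hemin replicate 2 (0.0716) each ended the call.

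AGO1 (ENSG00000092847) had 2095 and 1864 expected counts before and 1977 and 2215 after hemin. Scaled for depth these were 264.9 and 248.9 against 266.6 and 274.5 CPM, so the hemin-treated libraries stood just above the untreated ones. AGO1 had a log2 fold change of 0.07 (SE 0.046) and did not pass the test (edgeR adjusted p = 0.328). AGO1, AGO3 and AGO4 lack or nearly lack the cutting activity of AGO2 and act mainly through recruited enzymes.

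AGO3 (ENSG00000126070) was at 76.62 and 77.58 CPM in the untreated libraries and at 71.33 and 69.04 CPM after hemin, from 606, 581, 529 and 557 expected counts. The hemin-treated libraries were the lower ones. Its log2 fold change of -0.14 (SE 0.059) had an unadjusted p of 0.0446 and did not pass the adjusted threshold (edgeR adjusted p = 0.158). On TPM the sign was the other way, with a log2 fold change of 0.11 by limma on log2(TPM + 1).

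AGO4 (ENSG00000134698) had 523, 522, 465 and 530 expected counts, untreated libraries first. In CPM these were 66.13 and 69.7 before and 62.7 and 65.69 after hemin, and the hemin-treated libraries were the lower ones. AGO4 had a log2 fold change of -0.08 (SE 0.065, edgeR adjusted p = 0.468). Its TPM also did not overlap, at 15.36 and 17.21 against 14.09 and 12.36.

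AGO4, AGO1 and AGO3 stand in this order on the plus strand of chromosome 1, from 35808016 to 36072500 (GRCh38, GENCODE 44), a stretch of 264 kb. AGO4 ends 11917 bases before AGO1 begins, and AGO1 ends 185 bases before AGO3 begins. AGO2 lies apart on chromosome 8. The fitted changes of the 3 neighbours were 0.07, -0.14 and -0.08 on the log2 scale for AGO1, AGO3 and AGO4, and none passed the test.

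Within the Argonautes the mix of reads and the mix of transcripts gave different pictures. Of the summed expected counts of AGO1 to AGO4, AGO2 took 38.4% and 37.2% in the untreated libraries and 40.9% and 40.0% after hemin. The share of AGO3 in counts was 11.6% and 12.3% against 10.5% and 10.1%, and that of AGO4 was 9.98% and 11.1% against 9.25% and 9.63%. These 3 shares did not overlap between the groups, whereas that of AGO1 did, with means of 39.7% and 39.8%. The shares of a library add up to the whole, so they are not separate results. The CPM of the groups did not overlap for 57.3% of all tested genes, but CPM are another measure than shares of a sum. How often such shares separate between the groups was not examined.

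In TPM none of the 4 shares was separate between the groups. AGO2 made up 38.1% and 33.0% of the summed Argonaute TPM before and 33.7% and 35.2% after hemin, or 35.5% ± 3.6 against 34.5% ± 1.04 (SD, n = 2). AGO1 made up 30.2% ± 2.37 against 32.5% ± 1.83, AGO3 19.0% ± 3.98 against 20.6% ± 3.03, and AGO4 15.2% ± 2.0 against 12.5% ± 2.25. The summed level of the 4 genes was 111.2 and 103.4 TPM in the untreated and 100.1 and 113.5 TPM in the hemin-treated libraries. No test is given for the shares, since an exact two-sided permutation test of 2 against 2 libraries cannot go below p = 0.333.

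**Figure D3:**
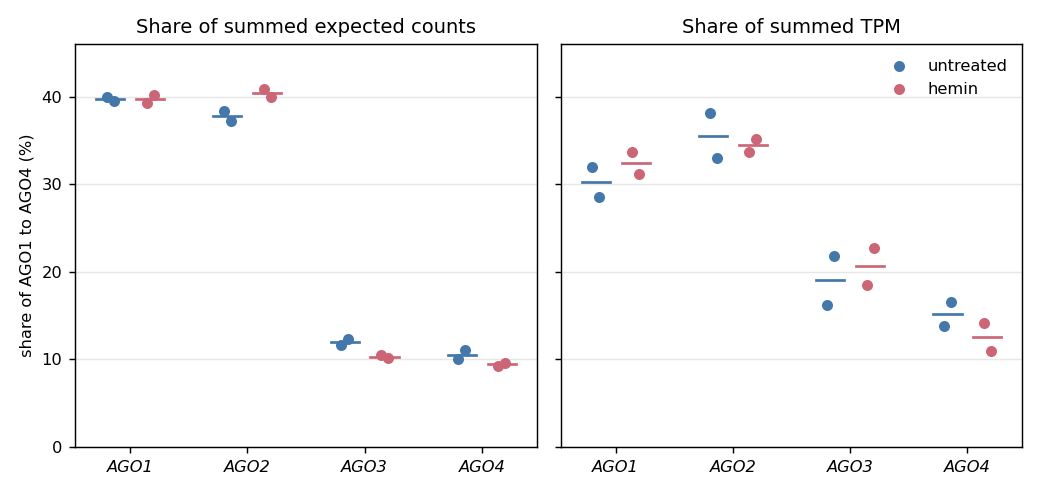
Share of AGO1, AGO2, AGO3 and AGO4 in their sum, in percent, by expected counts (left) and by TPM (right), with a point per library and a bar at the mean of the 2 libraries of a group. In counts AGO2 lies at 37.2% to 38.4% before and 40.0% to 40.9% after hemin, while in TPM the groups overlap for all 4 genes.

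DROSHA (ENSG00000113360), the ribonuclease of the Microprocessor, lies on the minus strand of chromosome 5 from 31400494 to 31532196. Its expected counts were 970 and 860 in the untreated and 915 and 1001 in the hemin-treated libraries, which is 122.6 and 114.8 against 123.4 and 124.1 CPM. The hemin-treated values were higher by less than the gap between the untreated libraries. DROSHA had a log2 fold change of 0.06 (SE 0.053, edgeR adjusted p = 0.514). In TPM the libraries were ordered the other way and did not overlap, with 76.36 and 73.18 before against 65.77 and 66.8 after hemin. By limma on log2(TPM + 1) the log2 fold change was -0.17 and did not pass (adjusted p = 0.277).

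DGCR8 (ENSG00000128191), which recognises the hairpin for DROSHA, lies on the plus strand of chromosome 22 from 20080221 to 20111877. It had 927 and 838 expected counts before and 915 and 1056 after hemin. Scaled for depth the untreated libraries were at 117.2 and 111.9 CPM and the hemin-treated ones at 123.4 and 130.9 CPM, with no overlap. The log2 fold change of 0.15 (SE 0.054) had an unadjusted p of 0.0204, and the edgeR adjusted p was 0.0953. TPM was 53.65 and 47.79 against 53.53 and 59.62.

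XPO5 (ENSG00000124571), the export receptor of the hairpins, lies on the minus strand of chromosome 6 from 43522334 to 43576038. Its counts were nearly even, at 1935 and 1880 before and 1918 and 1987 after hemin, or 244.7, 251.0, 258.6 and 246.3 CPM. The groups overlapped, and the log2 fold change was 0.03 (SE 0.044) with a 95% interval of 0.95-fold to 1.09-fold (edgeR adjusted p = 0.751). With scaling by library size alone the sign turned, at -0.01, and it also turned without hemin replicate 1, at -0.0017. POLR1C, a subunit of RNA polymerases, overlaps XPO5 on the opposite strand and had counts equal to 16.8% of those of XPO5. The overlap is of gene bounds, and whether the genes share exons was not examined. RSEM was run with no strand option named, so reads of any shared exon could not be told apart by strand. The same holds for DICER1 and its antisense gene DICER1-AS1 (2.03% of its counts). RSEM's posterior SD was at most 0.068% of the count for XPO5 and 0.069% for DICER1.

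DICER1 (ENSG00000100697), the cytoplasmic ribonuclease, lies on the minus strand of chromosome 14 from 95086228 to 95158010. It had 712 and 575 expected counts before and 635 and 782 after hemin, that is 90.02 and 76.78 against 85.62 and 96.93 CPM. The groups overlapped, and the spread within them was the widest in CPM relative to the level of any member. The log2 fold change was 0.13 (SE 0.086, edgeR adjusted p = 0.359).

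TARBP2 (ENSG00000139546), the double-stranded RNA-binding partner of DICER1, lies on the plus strand of chromosome 12 from 53500921 to 53506431. It was the most thinly counted member, with 116 and 111 expected counts before and 128 and 129 after hemin. Its CPM was 14.67 and 14.82 against 17.26 and 15.99, with no overlap. The log2 fold change was 0.17 (SE 0.12), and the interval, from 0.93-fold to 1.36-fold, was the widest of the 10 (edgeR adjusted p = 0.403). TPM was 14.5 and 17.08 before and 23.65 and 20.83 after hemin, a mean of 15.8 against 22.2. On log2(TPM + 1) the log2 fold change of TARBP2 was 0.47 and did not pass either (limma adjusted p = 0.183).

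TNRC6A (ENSG00000090905), the scaffold, lies on the plus strand of chromosome 16 from 24610209 to 24827632. Expected counts were 513 and 496 before and 515 and 590 after hemin, or 64.86 and 66.23 against 69.44 and 73.13 CPM. The hemin-treated libraries were above the untreated ones in CPM, and the log2 fold change was 0.12 (SE 0.062, edgeR adjusted p = 0.231). In TPM hemin replicate 2 stood apart at 23.64, beside 17.29, 14.9 and 15.88 in the other libraries.

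The length that RSEM gives a gene is the mean of its transcripts' lengths weighted by their estimated abundance, and TPM are counts divided by a length of this kind. The estimate did not overlap between the groups for 3 of the 10 members, beside 29.5% of all tested genes. For DROSHA it was 2312 and 2219 bases before and 2625 and 2574 after hemin. For TARBP2 it was 1474 and 1249 bases before and 1050 and 1092 after, and for AGO4 it was 6114 and 5654 before and 6159 and 7272 after. By this estimate the hemin-treated libraries had the longer transcripts for DROSHA and AGO4 and the shorter ones for TARBP2. The TPM of the groups did not overlap for the same 3 members, against 49.8% of all tested genes.

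For AGO2 the estimated length was 8522 and 9545 bases before and 11333 and 9337 after hemin, so hemin replicate 1 stood above the others and the groups overlapped. AGO1 was at 10580 to 11722 bases and XPO5 at 2637 to 3014 bases over the 4 libraries. DICER1 ranged from 5583 to 7225 bases and AGO3 from 3688 to 6040 bases, and for both genes the replicates of a group lay farther apart than the group means. The median over the 10 members of the log2 ratio of mean lengths, hemin over untreated, was -0.04, and it was 0.031 without hemin replicate 2. The annotation of the files gives between 3 transcripts (AGO4) and 25 (DICER1) for a member. Reads were single and 50 bases long, and which of the transcripts carried the difference was not examined here.

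**Figure D4:**
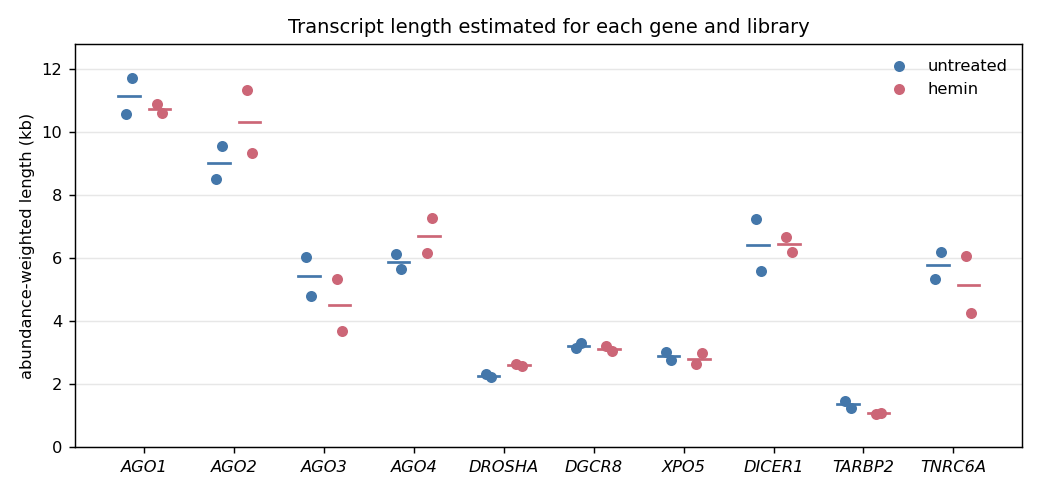
Abundance-weighted transcript length of each gene in each library, in kilobases, with a point per library and a bar at the mean of the 2 libraries of a group. DROSHA is longer and TARBP2 shorter in both hemin-treated libraries, while the points of AGO3 and DICER1 spread within the groups.

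Other genes of the pathway were taken from lists of 90 genes in all, of which 77 passed the filter. Of these, 22 were called higher (28.6%) and 6 lower (7.79%), with a median log2 fold change of 0.13, beside 7.00% and 7.14% and a median of -0.0048 over all tested genes. By DESeq2 the counts were 21 higher and 2 lower. By limma on log2(TPM + 1) 1 was called higher and 0 lower. Without untreated replicate 1 the count of higher genes was 14, and that of lower genes was 2 without that library, 3 without untreated replicate 2 and 3 without hemin replicate 1.

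The partners of the Microprocessor held the most calls, with 10 of 15 higher and 1 lower and a median log2 fold change of 0.26. These are 66.7% and 6.67% of the list, beside 7.00% and 7.14% of all tested genes. KHSRP, which binds the loops of some hairpins, rose from 3585 and 3305 to 4228 and 4719 counts, a log2 fold change of 0.37 (SE 0.04, edgeR adjusted p = 7.1e-04). NCBP2, a subunit of the nuclear cap-binding complex, fell from 556 and 548 to 422 and 489 counts, with a log2 fold change of -0.29 (SE 0.066, edgeR adjusted p = 0.0206). The call of NCBP2 ended by DESeq2 (adjusted p = 0.0964) and without untreated replicate 1, untreated replicate 2 or hemin replicate 1 (edgeR adjusted p from 0.0571 to 0.103). Many of these proteins also act in splicing and other steps of RNA metabolism. DROSHA and DGCR8 themselves did not pass, and whether they differed from their partners was not tested.

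Of the 8 partners of DICER1 and of Argonaute loading, 4 were called higher and 0 lower, with a median of 0.16. At an unadjusted p under 0.05 edgeR gave 5 higher and 0 lower, beside 2133 and 2118 of all 14458 tested genes. DESeq2 called 4 of the list higher and 0 lower. HSPA8, the constitutive HSP70 chaperone that helps small RNA duplexes into Argonautes, had 11109 and 10913 counts before and 15412 and 17300 after hemin. Its log2 fold change of 0.56 (SE 0.038, edgeR adjusted p = 7.5e-05) was the largest in this list. HSP90AA1 rose by 0.29 and HSP90AB1 by 0.16 on the log2 scale, both forms of the HSP90 chaperone, the latter not past the threshold without untreated replicate 1 (edgeR adjusted p = 0.074). FKBP4, a co-chaperone of HSP90, stood lowest at -0.06 and did not pass (edgeR adjusted p = 0.452). The chaperones also serve many other client proteins.

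Among 15 effectors of silencing, the list of TNRC6A's relatives and other proteins that bind Argonautes or their targets, 2 were called higher and 0 lower by edgeR. There were 4 higher and 1 lower at an unadjusted p under 0.05 by edgeR, beside 2133 and 2118 of all 14458 tested genes. DESeq2 called 2 of the list higher and 0 lower. PABPC1, the main poly(A)-binding protein of the cytoplasm, rose by 0.19 (SE 0.037, edgeR adjusted p = 0.0102) and TNPO1, an import receptor, by 0.24 (SE 0.049, edgeR adjusted p = 0.0116) on the log2 scale. Without untreated replicate 1 the adjusted p of TNPO1 was 0.074 by edgeR. TNRC6C, a paralog of TNRC6A, had the largest fitted value at 0.32 from 138, 110, 151 and 159 counts and did not pass (edgeR adjusted p = 0.124). FXR2, an RNA-binding protein related to FMR1, had the lowest at -0.14 (edgeR adjusted p = 0.156).

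Of 18 genes of deadenylation and decapping, 2 were called higher (11.1%) and 1 lower (5.56%). Over all tested genes the shares were 7.00% and 7.14%, so these counts stood near the background. The subunits of the PAN deadenylase moved apart. PAN2, which holds the nuclease, fell from 750 and 663 to 526 and 580 counts, a log2 fold change of -0.36 (SE 0.06, edgeR adjusted p = 0.00554). PAN3, which binds TNRC6 proteins, rose from 307 and 288 to 358 and 391 counts, a log2 fold change of 0.32 (SE 0.073, edgeR adjusted p = 0.0189). EDC4, a scaffold of decapping, rose by 0.22 on the log2 scale (edgeR adjusted p = 0.0308). The calls of PAN3 (edgeR adjusted p from 0.0559 to 0.0814) and EDC4 (0.0994 to 0.187) ended without untreated replicate 1, untreated replicate 2 or hemin replicate 2, and that of PAN3 also by DESeq2 (adjusted p = 0.0962). DCP1B had the largest value at 0.34, from 25 to 46 counts per library, and did not pass (edgeR adjusted p = 0.531).

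Of 12 genes for tailing and turnover of microRNAs, 11 were tested, with 2 called higher and 2 lower. Each is 18.2% of those tested, beside 7.00% higher and 7.14% lower over all tested genes. DESeq2 called 1 of the list higher and 0 lower. LIN28B, which blocks the maturation of let-7 (seed GAGGUAG above), rose from 657 and 610 to 817 and 886 counts, a log2 fold change of 0.42 (SE 0.052, edgeR adjusted p = 0.00133). TUT7, which adds uridines to let-7 precursors, fell from 436 and 400 to 325 and 366 counts, a log2 fold change of -0.28 (SE 0.071, edgeR adjusted p = 0.0285). ERI1, an exonuclease that trims 3′ ends, fell by 0.31 on the log2 scale (edgeR adjusted p = 0.0297), and XRN2, a 5′ to 3′ exonuclease of the nucleus, rose by 0.19 (edgeR adjusted p = 0.0307). The calls of TUT7 (edgeR adjusted p from 0.0602 to 0.128) and ERI1 (0.0715 to 0.135) ended whichever single library was left out, and that of XRN2 (0.0592 to 0.134) ended without any library but hemin replicate 1. DESeq2 called none of TUT7, ERI1 and XRN2. LIN28A was below the filter with 4 to 8 counts per library, as were MIRLET7BHG, a host of let-7a and let-7b, with at most 1 count and MIR100HG, another host of let-7a, with at most 3.

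**Figure D5:**
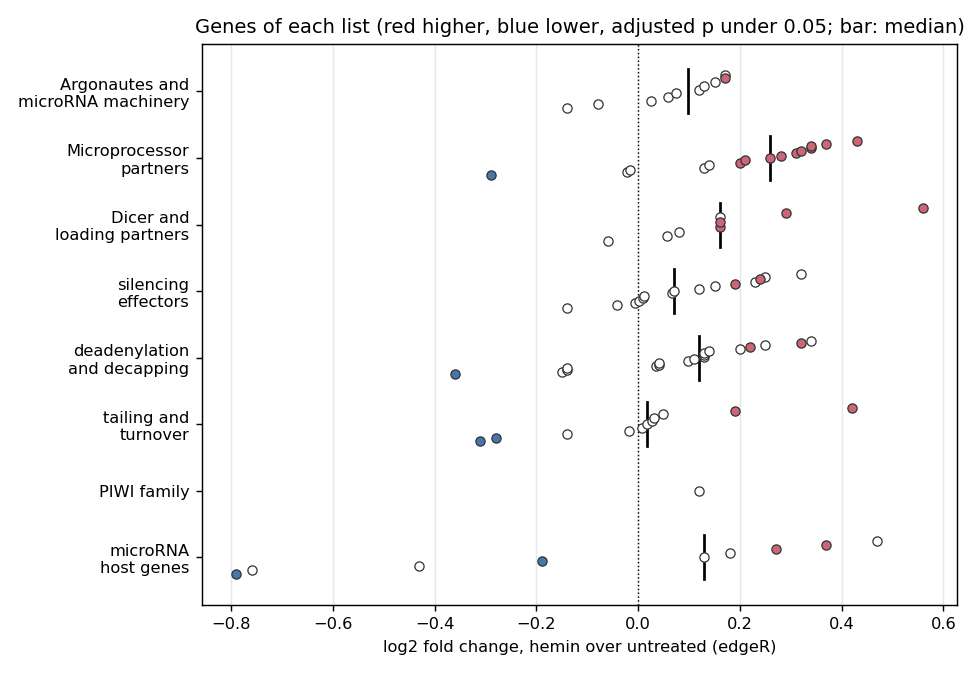
Log2 fold change, hemin over untreated, of each tested gene of the 10 members and of the 7 pathway lists, with genes called higher in red, genes called lower in blue, other genes open and the median of a list as a bar. The 10 members span -0.14 to 0.17, while the Microprocessor partners have 10 red points and the host genes span -0.79 to 0.47.

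The PIWI proteins, the germline branch of the Argonaute family that binds other small RNAs, were near the floor in these cells. PIWIL1 was listed at 0, 0, 0 and 1 counts, PIWIL2 at 1, 3, 1 and 2 and PIWIL3 at 3, 2, 4 and 3, all below the filter. PIWIL4 was tested, with 16, 24, 15 and 29 counts, and its replicates differed by more than the groups. Its log2 fold change was 0.12 (SE 0.40, edgeR adjusted p = 0.886), with 0 of the family called in either direction by edgeR or DESeq2 and 0 at an unadjusted p under 0.05.

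Of 18 transcripts that host microRNAs, 9 were tested, with 2 called higher and 2 lower. Each is 22.2% of those tested, beside 7.00% higher and 7.14% lower over all tested genes. DESeq2 called 2 of the list higher and 1 lower. MIR223HG, the host of miR-223, fell from 342 and 355 to 197 and 209 counts, and its log2 fold change of -0.79 (SE 0.087, edgeR adjusted p = 7.6e-04) was the lowest value fitted in the lists. MIR22HG, the host of miR-22, had 54 and 42 counts before and 26 and 31 after hemin, a log2 fold change of -0.76 that did not pass (SE 0.25, edgeR adjusted p = 0.0712). MIR4435-2HG fell by 0.19 on the log2 scale (edgeR adjusted p = 0.0432), a call that ended without untreated replicate 1 (edgeR adjusted p = 0.222) or hemin replicate 1 (0.114), and by DESeq2 (adjusted p = 0.07). CYTOR is known as a near-identical copy of MIR4435-2HG, and how far they share reads was not tested here. The posterior SD of the MIR4435-2HG count was at most 1.3% of the count.

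The hosts that share seeds did not all pass the test. MCM7, a subunit of the replicative helicase whose locus holds miR-25, miR-93 and miR-106b, rose from 2219 and 2154 to 2706 and 2982 counts, a log2 fold change of 0.37 (SE 0.04, edgeR adjusted p = 7.3e-04). MIR17HG, with the related strands, had 109 and 82 counts before and 114 and 153 after hemin, a log2 fold change of 0.47 (SE 0.16, edgeR adjusted p = 0.0831). SMC4, a condensin subunit with miR-15b and miR-16 in an intron, was at 0.13 (edgeR adjusted p = 0.0693), and DLEU2, with miR-15a and miR-16, at 0.18 (edgeR adjusted p = 0.551). ANK1, the ankyrin of the red cell membrane, rose by 0.27 on the log2 scale (edgeR adjusted p = 0.00559), while MIR193BHG was at -0.43 from 10 to 19 counts (edgeR adjusted p = 0.564). The other 9 hosts were below the filter, among them MIR155HG with at most 2 counts, and MIR34AHG had no count in any library. A host transcript's count is not a measure of the microRNAs cut from it.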

How the data were processed

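Poly(A) RNA libraries of K562 cells, 2 untreated and 2 treated with hemin, were read as single 50-base reads. The authors trimmed the reads with Trimmomatic 0.39 and estimated gene levels with RSEM 1.3.1 on Ensembl 106 (GRCh38), each library separately. The deposited expected counts give, without normalization, the reads that RSEM assigned to a gene, and the deposited posterior mean counts with their SD come from its sampling step. The SD was at most 0.42% of the count of a member. The TPM were scaled by effective length by the authors, and the deposited lengths are in bases and weighted by transcript abundance. The deposited FPKM were not used. RSEM was run with no strand option named.

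Expected counts were rounded, filtered with filterByExpr, given TMM factors and passed to edgeR 4.0.16 (quasi-likelihood test, condition as the only term, Benjamini-Hochberg adjustment over 14458 genes, threshold 0.05) in R 4.3.3. CPM given here are TMM-scaled. Intervals are 95% and come from the fit. The code was tested on simulated counts, with changes placed in genes with a mean of at least 100 counts. Of 100 genes changed 2-fold 100 were called, and of 100 changed 1.25-fold 42 were called. Small changes can therefore go uncalled. The floor of 3 counts covers counting error only. DESeq2 1.42.0 and limma 3.58.1 served as alternatives, with RLE factors, library size alone, no filter, a filter of 20 counts in both libraries of either group, pseudocounts of 1 and 0.1 for log2 TPM, the posterior mean counts, a replicate block, and the omission of each library. Of the gene identifiers 99.84% were found in GENCODE 44 (Ensembl 110), which gave the coordinates, and microRNA sequences are from RefSeq. Coordinates from release 44 can differ slightly from those of Ensembl 106.

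The members and the lists were chosen with earlier results of these data known. Of each list, the genes named are the largest and the lowest fitted value, up to 3 called genes with the smallest p in each direction, genes with no count, and all tested PIWI and host genes. Some genes that the lists hold are counted but not reported here by name. The labels do not say that the 2 libraries of a group came from separate cultures, so p-values measure the spread between these libraries, which may be technical. Within each group the libraries differed by more than counting noise, at 1.83 (untreated) and 2.22 (hemin) of chi-square on average for a tested gene. The labels do not say whether libraries with the same replicate number were handled as pairs. The within-group differences correlated at 0.0047 across genes, so no shared effect of the replicate number was seen. That correlation cannot decide whether the libraries were paired, and a fit with a replicate block is given below.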

Additional observations from a re-analysis of the deposited data

How the results depend on the processing

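For the 40 genes picked by the naming rule and 13 alternatives there were 518 values, of which 416 kept direction and side of the threshold, 78 kept direction but no longer passed, 8 newly passed and 16 changed sign. The count of members called higher was 0 with library size alone, 0 under both limma fits and 0 to 1 with a library left out, and 0 members were called lower in every alternative. The replicate block gave 0 members higher, with AGO2 at 0.17 (edgeR adjusted p = 0.0524), 19 pathway genes higher and 5 lower, and 855 genes higher and 886 lower in all. By limma on log2(TPM + 1) and log2(TPM + 0.1), AGO2 was at -0.0481 and -0.0492, AGO3 at 0.11 and 0.114, DROSHA at -0.171 and -0.173, FKBP4 at 0.18 and 0.182, PIWIL4 at -0.287 and -0.427 and SMC4 at -0.00905 and -0.00918. XPO5 was at -0.0123 with library size alone and from -0.00173 to 0.0614 with a library left out, and PIWIL4 ranged from -0.363 to 0.482. Pathway genes called higher numbered 1 by each limma fit and 14 to 24 with a library left out. Those called lower numbered 2 by DESeq2, 0 by each limma fit and 2 to 4 with a library left out. Over all genes, DESeq2 called 597 higher and 483 lower, limma 14 and 15 higher and 33 and 34 lower, and leaving out a library gave 469 to 934 higher and 512 to 884 lower. Library size alone gave 729 higher and 1358 lower, and it moved the median of all genes from -0.0048 to -0.043. The change of AGO2's share among the Argonautes was -1.07 percentage points in TPM (SD 2.65), 2.67 in expected counts and -3.62 to 1.47 with a library left out. The median log2 ratio of the members' lengths ranged from -0.059 to 0.031. A library left alone in its group was assumed to vary like the others, and MIR193BHG and PIWIL4 have no value under the filter of 20 counts. The cause of these changes was not tested. Depth limits TARBP2 most, with 111 to 129 counts per library.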

Other observations

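Genes that lie beside the members were read for their own counts. TRMT2A, a transfer RNA methyltransferase that shares 3 bases with DGCR8, had 922 and 952 expected counts before and 1028 and 1088 after hemin, a log2 fold change of 0.17 (edgeR adjusted p = 0.0766). POLR1C, which overlaps XPO5, had 306 and 283 before and 367 and 344 after hemin, a log2 fold change of 0.26 (edgeR adjusted p = 0.081). C5orf22 begins 90 bases from DROSHA and was at -0.03 on the log2 scale (edgeR adjusted p = 0.829), and POLH begins 146 bases from XPO5 and was also at -0.03 (edgeR adjusted p = 0.851). MAP3K12, 857 bases from TARBP2, had 96 and 87 counts before and 66 and 65 after hemin, a log2 fold change of -0.49 (edgeR adjusted p = 0.0727). None of these neighbours passed the threshold. ENSG00000219470, a processed pseudogene inside XPO5 on the same strand, had counts equal to 0.606% of those of XPO5.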
